A study of Arabidopsis thaliana with 12 samples.

Results

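The comparison described here sets 3 libraries from roots in which the transcription factor PLT5 had been switched on for 24 h against 3 mock libraries of the same time, 6 of the 12 libraries of the series. They were taken by their titles, which name the treatment, the time and the replicate. All groups were Arabidopsis thaliana of the genotype 35S:XVE>>PLT5-TagRFP, in which the constitutive 35S promoter drives XVE, a regulator that turns on PLT5 fused to the fluorescent protein TagRFP once estradiol is present. Mock plants received DMSO, the solvent, and induced plants the treatment labelled EST, read here as estradiol. Each library pooled root segments of 1.5 cm cut just under the hypocotyl from 15 plants, with visible lateral roots taken away. Mock plants carry the construct too, and no estradiol-treated plants without it are among the 12 libraries, so that effects of estradiol and of PLT5 cannot be told apart. The other 6 libraries are mock and induced roots at 8 h and serve here for the spread and for a comparison of the times.

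PLT5 belongs to the PLETHORA branch of the AP2 family, DNA-binding proteins known for setting up and holding stem cell regions in roots, for lateral root formation and for regeneration. The segments sampled are the oldest part of the root, where background knowledge places a thickening cylinder with cambium, secondary xylem, phloem and cork. Growth in plants is known to rest on ribosome production and wall synthesis, while ion uptake, defence compounds and lignified walls are the work of mature tissues.

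Total counts of the 6 libraries ranged from 37195613 to 41447647, and Pearson's r between replicates of a 24 h group lay between 0.9941 and 0.9964 on log2 CPM. This r runs across genes, which do not count as replicates. PLT5 (AT5G57390, chromosome 5, 23252989-23256703, minus strand, TAIR10.1) stood at 13.4, 17.2 and 11.8 CPM, the counts scaled to a common library size, in the 3 mock libraries and at 2929, 2769 and 2688 CPM in the 3 induced ones, in the order of their replicate numbers. Reads of the endogenous PLT5 and of the fusion are summed in these counts. Of 21439 genes tested, 15505 (72.3%) were called at an adjusted p under 0.05 by edgeR's quasi-likelihood test. The replicates are biological ones, per the design text. The words rose and fell are used for these calls, SE is the standard error of a log2 fold change, and levels are means ± SD of 3 libraries. CPM is not scaled by gene length and compares a gene between libraries only. Of all tested genes 8216 (38.3%) rose and 7289 (34.0%) fell, and the median log2 fold change was 0.06. Large changes were mostly falls: 5185 genes (24.2%) changed at least 2-fold, 1250 (5.83%) upward and 3935 (18.4%) downward. Counts of list members below are to be read against these shares. The CPM of mock and induced libraries at 24 h did not overlap for 16159 of the 21439 tested genes. A lack of overlap was thus the usual case. Lists were matched by gene ID, symbol or annotation text, so a family list holds its named members and not every gene of the family. Scaling by total counts in place of TMM moved the median of all genes by 0.14 to 0.20, and 62.9% of the calls were then rises, against 53.0% with TMM and 49.5% with RLE factors. A list's share of the counts, given below, is taken of the total counts without TMM. Shares thus carry this upward shift, which the TMM medians and CPM beside them do not. In bulk roots, fewer cells of a type and less RNA per cell cannot be told apart.

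The tissue label was checked with markers of mature root tissues. All 10 were detected in mock roots and none was at 0 in either group. Of these 10 genes 8 fell and 1 rose, with a median log2 fold change of -2.38. Their summed share of the counts went from 0.111% ± 0.0114 (range 0.101% to 0.124%) in mock to 0.0306% ± 0.00131 (range 0.0296% to 0.0321%) in induced roots. CYP86A1, a suberin hydroxylase, fell from 341 ± 27.1 to 13.5 ± 5.09 CPM. PXY, the receptor kinase of the cambium, fell from 237 ± 9.94 to 25.4 ± 1.36 CPM. PHO1, a xylem loader of phosphate, and the others that fell were WOX4, GPAT5, XCP1, XCP2 and APL, while SKOR was not called. The xylem protease gene XCP1 fell from 169.8 ± 43.9 to 45.4 ± 9.42 CPM. SUC2, the sucrose loader of phloem companion cells, was the marker that rose, from 37.7 ± 9.27 to 139 ± 11.7 CPM. Of 8 markers of green tissue 5 fell and none rose, and their summed share was 0.147% ± 0.0147 in mock and 0.133% ± 0.00683 in induced roots. Falls numbered 2 with total library size and 3 without induced replicate 1, mock replicate 1 or mock replicate 2. LHCB1.1 (-0.51) lost its call with total library size and without any single library but mock replicate 3 (-0.59 to -0.41). The part that a change in these tissues plays in the results below was not tested.

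The genes that rose most from a level near 0 were mainly enzymes and regulators with hardly a read in mock roots. AT4G19750 (chromosome 4, 10745682-10747127, minus strand), annotated as a glycosyl hydrolase with a chitinase insertion domain, had 0 counts in all 3 mock libraries and 20.5, 24.3 and 24.5 CPM in the induced ones. Its level was at least 874-fold higher when 3 counts over the mock group are taken as the floor. AFO, also known as YABBY1 or FILAMENTOUS FLOWER and known for the lower side of leaves and floral organs, had 1 count over the mock group and 895 over the induced group, a ratio of 809 with a 95% counting interval of 145 to 32004. Its induced libraries held 8.41, 6.398 and 6.59 CPM. MRN1, which makes the triterpene marneral, had 2 counts in mock and 10.2, 9.52 and 8.51 CPM in the induced libraries. AT4G37850, a bHLH protein gene, went from 0.0266, 0.1001 and 0.0557 CPM to 9.91, 10.5 and 10.2 CPM (log2 fold change 7.3 ± 0.423 (SE), adjusted p = 1.16e-08). CYP81D2, a cytochrome P450 gene, stood at 5.27, 6.83 and 6.64 CPM in the induced libraries with 1 count over the mock group. AT4G19730, AT2G40250, EDA12, AT2G33010 and PLT5 itself complete the 10 largest rises. Only genes without overlap between the groups were considered for this ranking.

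The largest falls left genes with a clear level in mock roots at a few reads. CYP78A8 (chromosome 1, 82984-84946, minus strand) stood at 76.3, 81.6 and 71.8 CPM in mock and at 0.0953, 0.191 and 0.1202 CPM in induced libraries (log2 fold change -9.11 ± 0.268 (SE), adjusted p = 7.39e-11). Its relative CYP78A5, known for driving organ growth through a mobile signal, went from 6.999, 8.41 and 8.13 CPM to 1 count over the 3 induced libraries. AT4G01390, coding for a TRAF-like protein, went from 74.1, 64.2 and 57.2 CPM to 0.262, 0.191 and 0.0962 CPM (log2 fold change -8.45 ± 0.333 (SE), adjusted p = 4.84e-10). AT3G62930, a thioredoxin superfamily gene, fell from 21.1 ± 1.66 to 0.0638 ± 0.01398 CPM. The other 6 were AT1G20990, the peroxidase gene AT5G47000, AT3G61210, XTH20, LDOX and CYP71B13, ranked under the same condition.

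By gain in mean CPM, where long and abundant genes weigh more, PCK1 led the called nuclear genes. PCK1 (chromosome 4, 17802690-17806705, minus strand) codes for phosphoenolpyruvate carboxykinase, which turns oxaloacetate into phosphoenolpyruvate, a step known from the use of stored oil. It held 531, 572 and 542 CPM in mock and 4142, 3782 and 3765 CPM in induced libraries (log2 fold change 2.83 ± 0.0675 (SE), adjusted p = 3.1e-11), and its response was larger at 24 h than at 8 h (1.59 at 8 h, adjusted p of the difference = 7.14e-07). After PCK1 and PLT5 came GAPC2, a glycolytic dehydrogenase, from 1365 ± 59.2 to 2666 ± 43.9 CPM. The elongation factor genes AT5G60390 and LOS1 followed, from 2344 ± 207 to 3494 ± 132 CPM and from 1716 ± 128 to 2609 ± 65.8 CPM. AT5G60390 has near-identical copies that can share reads, so its own level is uncertain. HSC70-1, GLT1 and AT2G16586 complete the 8 largest gains. PYK10, the myrosinase of the ER bodies in roots and the most abundant of the genes named here, lost most. Its libraries held 19817, 18512 and 18476 CPM in mock and 10309, 8972 and 10342 CPM after induction (log2 fold change -0.94 ± 0.0832 (SE), adjusted p = 5.82e-07). GH9B13, coding for an endoglucanase, went from 1500.5 ± 91.7 to 60.01 ± 9.41 CPM, and DOX1, coding for an alpha-dioxygenase of fatty acids, from 1953 ± 308 to 261 ± 36.7 CPM. DR4, AT4G23670, DHAR1, AT4G11320 and ANNAT1 were the other large losses.

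Central carbon metabolism had list medians near that of all genes in glycolysis and the tricarboxylic acid cycle, with single genes changing far more. Of 23 cytosolic glycolysis genes 9 rose, 6 fell and 8 were not called, with a median of 0.06, the same as that of all genes. Falls numbered 1 with total library size, 3 without induced replicate 1 or mock replicate 1, and 2 without induced replicate 2 or mock replicate 3. The list's share of the counts went from 0.685% ± 0.0493 (range 0.637% to 0.736%) to 0.944% ± 0.0126 (range 0.931% to 0.956%), with no overlap. A large part of this gain came from GAPC2 alone, given above, which rose from 1365 ± 59.2 to 2666 ± 43.9 CPM. HXK2, coding for a hexokinase, rose from 8.25 ± 0.505 to 17.1 ± 0.966 CPM and the aldolase gene FBA6 from 91.1 ± 7.22 to 169.8 ± 9.9 CPM, while the aldolase gene FBA7 fell from 14.1 ± 1.93 to 4.14 ± 0.228 CPM. In the tricarboxylic acid cycle 8 of 19 genes rose and 4 fell, and the median of 0.04 was -0.01 with RLE factors. Falls numbered 2 with total library size, and the share of the counts went from 0.29% ± 0.0133 to 0.353% ± 0.00486. All 15 genes of sucrose cleavage and fermentation were called, 6 upward and 9 downward, 3 and 5 of them at least 2-fold. Sucrose synthase genes split: SUS3, SUS4, SUS5 and SUS6 fell and SUS1 and SUS2 rose. SUS4 stood at 55.1, 62.3 and 61.3 CPM in mock and 1.69, 2.24 and 1.88 CPM in induced libraries (log2 fold change -4.94 ± 0.133 (SE), adjusted p = 4.45e-11), and SUS1 at 201, 204 and 147 CPM and 418, 388 and 371 CPM (log2 fold change 1.09 ± 0.133 (SE), adjusted p = 1.01e-05). Invertases, which split sucrose into hexoses, went both ways as well. AT1G62660, a glycosyl hydrolase family 32 gene, fell from 410.0 ± 23.4 to 9.66 ± 3.37 CPM, and the wall invertase gene CWINV1 rose from 79.7 ± 12.3 to 267 ± 23.96 CPM.

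Starch genes rose more often than they fell, with 14 of 24 rising and 8 falling. Large changes went the other way, with 1 rise and 4 falls of at least 2-fold. SS3, a starch synthase gene, rose from 7.39 ± 0.803 to 28.3 ± 2.36 CPM and SBE2.1, a branching enzyme gene, from 111 ± 6.91 to 216 ± 5.64 CPM. BAM3, coding for the plastid beta-amylase that breaks starch down, fell from 63.5 ± 9.22 to 5.69 ± 2.39 CPM. Of 18 genes of plastid fatty acid synthesis 16 fell and 1 rose. FATA and FATB, coding for the thioesterases that release fatty acids, fell from 97.3 ± 4.21 to 37.6 ± 3.07 CPM and from 218 ± 14.4 to 96.4 ± 4.53 CPM. SSI2, a stearoyl-ACP desaturase gene, was the riser, with a log2 fold change of 0.21. Its call was lost with DESeq2 and with RLE factors (0.16), with the 6 libraries at 24 h alone, and without induced replicate 1 (0.14), mock replicate 2 (0.17) or mock replicate 3 (0.20). Sterol synthesis held 5 rises and 5 falls among 14 genes. Of 8 genes of tryptophan synthesis 6 were not called and ASA2 rose. TSA1 fell by 0.23 on the log2 scale with overlapping groups, and its call was lost with total library size and without induced replicate 2, induced replicate 3, mock replicate 1 or mock replicate 3 (-0.21, -0.20, -0.14 and -0.21). Only 4 of 16 genes of seed storage and oil bodies passed the filter on low counts. SDP1 and DGAT1 fell and OLEO4 rose, all by less than 2-fold. The call of SDP1 was lost with total library size, under which 0 falls were called in this list. The call of OLEO4 (0.58) was lost with DESeq2 (0.54) and without any single library but induced replicate 2 (0.50 to 0.60), and that of DGAT1 with total library size (-0.05) and without induced replicate 3, mock replicate 1 or mock replicate 3 (-0.16, -0.17 and -0.18).

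Nitrogen assimilation contained one of the steepest falls of an abundant metabolic gene. ASN1 (chromosome 3, 17437840-17441431, minus strand), coding for the asparagine synthetase known for its strong rise in the dark and at low sugar, stood at 565, 469.8 and 441 CPM in mock and 1.98, 3.39 and 2.52 CPM in induced libraries (log2 fold change -7.54 ± 0.184 (SE), adjusted p = 3.44e-11). Of 17 genes 8 rose and 7 fell. Glutamine synthetase genes went apart, the cytosolic GLN1;1 from 272 ± 15.6 to 48.6 ± 3.82 CPM and the plastid GLN2 from 56.8 ± 10.5 to 207 ± 3.9 CPM. Glutamate synthase genes did too: the ferredoxin-dependent GLU1 fell from 75.9 ± 4.09 to 20.1 ± 3.31 CPM, and the NADH-dependent GLT1 rose from 1188 ± 139 to 1867 ± 48.3 CPM. In sulfate assimilation 9 of 15 genes fell and 3 rose, with APR1, coding for the reductase known as a control point, going from 106 ± 4.42 to 43.01 ± 5.32 CPM. Of 17 genes of serine, one-carbon and S-adenosylmethionine metabolism 11 fell and 2 rose. PGDH2 and PGDH1 code for the same step, the entry into serine synthesis, and went in opposite directions, from 180.1 ± 19.4 to 16.1 ± 2.24 CPM and from 271 ± 29.8 to 490.0 ± 52.8 CPM. MS2, a methionine synthase gene, fell from 935 ± 79.99 to 290.5 ± 27.4 CPM and SAHH2, coding for the enzyme that removes S-adenosylhomocysteine, from 631 ± 36.5 to 171 ± 22.4 CPM.

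Nucleotide synthesis was the metabolic list with no fall: 14 of 15 genes rose and 1 was not called, with a median of 0.79. ASE1, the first committed enzyme of purine synthesis, had 14.3, 11.6 and 13.8 CPM in mock and 39.6, 33.1 and 35.6 CPM in induced libraries (log2 fold change 1.45 ± 0.106 (SE), adjusted p = 9.92e-08). PYRB, coding for aspartate transcarbamoylase of pyrimidine synthesis, rose from 45.6 ± 4.98 to 91.7 ± 8.87 CPM. TSO2, a small subunit of ribonucleotide reductase, rose from 139 ± 12.1 to 281 ± 25.5 CPM, and the thymidine kinase gene TK1B from 6.49 ± 0.143 to 13.3 ± 0.598 CPM. The list's share of the counts was 0.086% ± 0.00613 in mock and 0.166% ± 0.00768 in induced roots. Of its 15 genes 14 responded differently at 24 h than at 8 h.

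In the lists of specialized metabolism, for flavonoids, glucosinolates with camalexin, and phenylpropanoids, most or all genes fell. MRN1, the marneral gene among the largest rises, is in none of these lists. All 9 flavonoid genes fell at least 2-fold, with a median of -3.04. CHS, the chalcone synthase at the entry of the pathway, had 780.1, 668 and 682 CPM in mock and 54.7, 56 and 86.6 CPM in induced libraries (log2 fold change -3.43 ± 0.178 (SE), adjusted p = 4.29e-09). LDOX and DFR, coding for late enzymes on the way to anthocyanins, had 46.8, 51.99 and 15.8 CPM and 42.9, 51.4 and 9.95 CPM in mock. In induced libraries LDOX had 0.119, 0.167 and 0.168 CPM and DFR 0.167, 0.3103 and 0.0962 CPM. Mock replicate 3 was the lowest mock library for both late genes, and still above the induced ones. All 17 tested genes of glucosinolate and camalexin synthesis fell, 14 of them at least 2-fold, with a median of -3.15. BCAT4, MAM3, CYP79F2 and CYP83A1 serve methionine-derived glucosinolates. BCAT4 fell from 73.2 ± 7.602 to 2.901 ± 0.445 CPM and CYP83A1 from 44.5 ± 4.76 to 2.46 ± 0.578 CPM. CYP79F2 went from 36.8 ± 5.48 to 1.49 ± 0.198 CPM, and reads can be shared with its close copy CYP79F1. Of 18 phenylpropanoid and lignin genes 14 fell and 3 rose. PAL1, the entry enzyme, had 644, 737 and 670.1 CPM in mock and 108, 97.99 and 98.1 CPM in induced libraries (log2 fold change -2.75 ± 0.132 (SE), adjusted p = 2.32e-09). LAC4 and LAC17, coding for laccases of lignin, fell from 60.9 ± 16.7 to 14.02 ± 1.601 CPM and from 35.4 ± 5.36 to 6.27 ± 1.09 CPM. FAH1, coding for the ferulate 5-hydroxylase that leads to syringyl units, rose from 20.98 ± 4.04 to 88.8 ± 10.8 CPM, and PAL3 and CAD5 rose too. The call of CAD5 (0.28) was lost without induced replicate 1 (0.19) or mock replicate 3 (0.24).

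The promoters of DFR and of MYB12, a regulator listed with the flavonoid genes, are printed since the G-box, a binding motif of light-linked bZIP and bHLH factors, stood in 5 of 9 promoters of the list (55.6%) against 7.68% of 27437 promoters of nuclear protein-coding genes. This small list had the highest G-box share of the 64 lists. Among all tested genes that rose 8.6% held a G-box, and among those that fell 7.98%. The G-box reads CACGTG on both strands and was searched from 250 bases before to 50 bases after the RefSeq gene start in TAIR10.1. Shown are the 150 bases before the start, 5′ to 3′ on the gene's strand, with the motif in capitals: DFR at chr5:17166033-17166182, minus strand, and MYB12 at chr2:19476176-19476325, plus strand.
DFR: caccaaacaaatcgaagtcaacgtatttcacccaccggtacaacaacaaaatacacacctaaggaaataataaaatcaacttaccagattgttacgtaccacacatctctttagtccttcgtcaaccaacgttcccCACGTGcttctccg
MYB12: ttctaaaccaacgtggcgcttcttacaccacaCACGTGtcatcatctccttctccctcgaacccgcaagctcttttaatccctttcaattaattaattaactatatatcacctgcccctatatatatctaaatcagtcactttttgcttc
A match describes letters only and is no sign of binding.

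**Figure D1:**
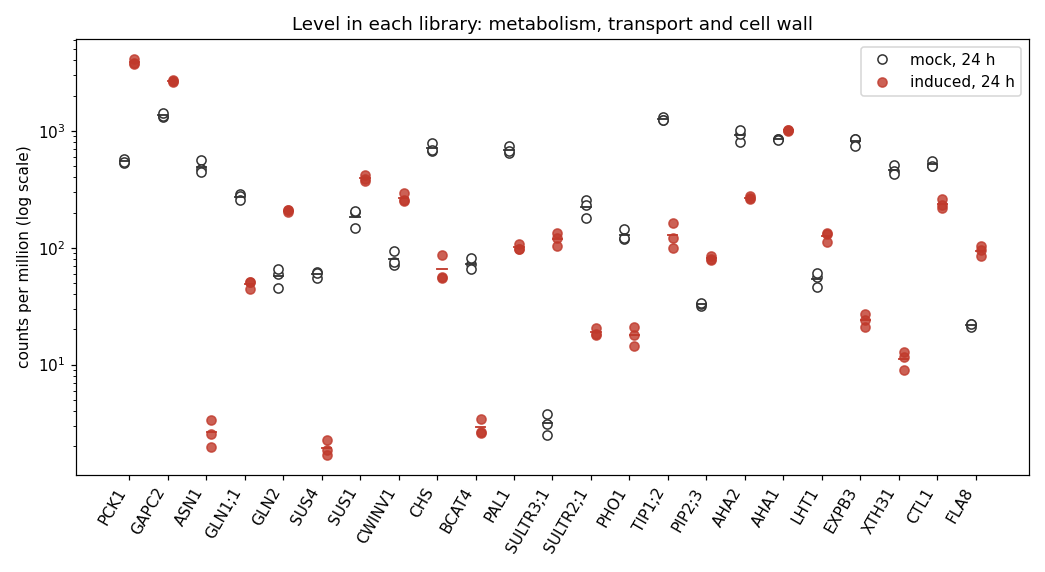
Level of 23 named genes of metabolism, transport and cell wall in each of the 6 libraries at 24 h, in CPM on a log scale. Open circles are mock and filled circles induced libraries, and short lines are means of 3. The groups do not overlap for any gene shown, as for 16159 of the 21439 tested genes. ASN1 stood at 492 ± 64.6 CPM in mock and 2.63 ± 0.712 CPM in induced libraries.

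Transport genes fell in most families. Over 194 tested transport genes 131 fell and 31 rose, with a median of -1.07. The plot of levels by library shows a choice of the named genes, with small and large changes. Of 19 aquaporin genes of the PIP and TIP families, which are water channels, 17 fell, and their share of the counts went from 0.345% ± 0.0068 to 0.143% ± 0.00422. TIP1;2, a channel of the vacuole membrane, had 1317, 1230.5 and 1226 CPM in mock and 98.5, 121 and 164 CPM in induced libraries (log2 fold change -3.3 ± 0.156 (SE), adjusted p = 2.05e-09). TIP2;1 went from 156 ± 5.81 to 4.03 ± 4.16 CPM, with induced libraries spread over 1.62, 8.83 and 1.63 CPM. PIP2;3 was the riser, from 32.8 ± 0.78 to 81.3 ± 2.67 CPM, with near-identical copies that can share reads.

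Of 49 amino acid transporter genes 40 fell, 35 of them at least 2-fold, and 2 rose. UMAMIT33, of the bidirectional UMAMIT family, had 18.4, 17.2 and 18.8 CPM in mock and 0.0715, 0.191 and 0.02404 CPM in induced libraries (log2 fold change -7.52 ± 0.284 (SE), adjusted p = 3.63e-10). UMAMIT14, which exports amino acids in the root stele, went from 6.93 ± 2.71 to 0.0636 ± 0.0729 CPM. LHT1, an importer of amino acids, rose from 54.4 ± 7.85 to 125 ± 11.5 CPM, and AAP1 rose from 8.66 ± 0.966 to 10.9 ± 0.758 CPM. The call of AAP1 (0.34) was lost without induced replicate 1 (0.28) or mock replicate 2 (0.25). Of 22 sugar transporter genes 12 fell and 5 rose. The vacuolar SWEET16 and SWEET2 fell from 6.33 ± 1.37 to 0.255 ± 0.146 CPM and from 37.8 ± 4.09 to 2.01 ± 0.468 CPM. SAG29, also called SWEET15, had 0.0532, 0.125 and 0.0836 CPM in mock and 12.4, 10.4 and 9.02 CPM in induced libraries (log2 fold change 6.86 ± 0.36 (SE), adjusted p = 4.85e-09). SWEET13, a sucrose exporter, rose from 1.16 ± 0.5196 to 5.47 ± 1.84 CPM, after a fall at 8 h.

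Mineral uptake genes were lower in most cases. Ammonium and nitrate transporter genes were all called, 10 of 15 downward and 5 upward. AMT1;2, an ammonium channel of the inner root layers, went from 15.6 ± 2.62 to 0.127 ± 0.0766 CPM, and NRT2.1, the inducible high-affinity nitrate transporter, from 39.4 ± 16.3 to 6.76 ± 1.44 CPM. NPF6.3, the nitrate transporter and sensor, rose from 77.6 ± 18.7 to 140.0 ± 14.3 CPM, as did AMT1;3, NRT2.7, NAR2.1 and AMT2, the last (0.28) not called without induced replicate 3 (0.20). Phosphate transporter genes fell in 5 of 6 cases, among them PHO1, which loads phosphate into the xylem, from 129 ± 13.8 to 17.8 ± 3.13 CPM. PHT1;1 fell by less, from 91.9 ± 9.45 to 69.5 ± 1.95 CPM, with close copies that can share reads. Of 22 potassium and sodium transport genes 12 fell and 2 rose, KUP3 and KUP9, each by less than 2-fold. GORK, an outward channel, fell from 117 ± 7.89 to 32.5 ± 1.27 CPM and AKT2, the phloem channel, from 8.55 ± 1.44 to 0.7095 ± 0.0626 CPM.

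Sulfate transporters split. SULTR3;1 (chromosome 3, 19251287-19255922, minus strand), a plastid sulfate transporter, had 3.81, 3.13 and 2.48 CPM in mock and 134, 122 and 104 CPM in induced libraries (log2 fold change 5.25 ± 0.202 (SE), adjusted p = 4.02e-10). SULTR1;3 rose as well, while the other 8 tested members fell. SULTR2;1, which moves sulfate in the vasculature, had 256, 229.7 and 180.0 CPM and 17.8, 20.7 and 18.1 CPM (log2 fold change -3.56 ± 0.165 (SE), adjusted p = 1.69e-09). Metal and boron transport held 11 rises and 14 falls among 30 genes. IRT1, the iron importer of the root surface, rose from 0.3997 ± 0.234 to 6.78 ± 0.789 CPM, and BOR1, the boron exporter into the xylem, from 33.4 ± 3.54 to 104 ± 7.897 CPM. NAS4, which makes the metal chelator nicotianamine, fell from 26.6 ± 4.096 to 1.02 ± 0.335 CPM. Of 21 proton pump genes 13 fell and 3 rose. The plasma membrane pumps AHA1 and AHA2 differ in direction: AHA2 had 803, 936 and 1012 CPM in mock and 261, 265 and 279 CPM in induced libraries (log2 fold change -1.77 ± 0.115 (SE), adjusted p = 3.28e-08), and AHA1 rose from 849.6 ± 9.35 to 1014 ± 10.4 CPM.

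Wall genes fell in nearly every family, beside the fall of mature-tissue markers given above, with the part of those tissues not tested. Over 334 tested genes 232 fell and 25 rose, with a median of -1.18. All 15 genes of secondary wall cellulose and xylan fell, 13 of them at least 2-fold, with a median of -1.90. IRX9 and FRA8, needed for the xylan backbone and its end, went from 29.5 ± 6.29 to 5.24 ± 1.66 CPM and from 19.2 ± 2.23 to 2.69 ± 0.591 CPM. ESK1, known for acetylating xylan, went from 37.4 ± 6.51 to 7.13 ± 1.92 CPM. Of 9 genes for cellulose in primary walls 8 fell and 1 was not called, with a median of -0.74. CESA1, a core subunit of cellulose synthase, stood at 716 ± 11.5 CPM in mock and at 392.3 ± 8.58 CPM in induced libraries (log2 fold change -0.87 ± 0.0459 (SE), adjusted p = 5.29e-09). CTL1, a chitinase-like protein needed for cellulose, fell from 517 ± 28.1 to 237 ± 22.3 CPM and COB from 283 ± 9.07 to 152 ± 4.504 CPM.

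Wall loosening genes were lower too. EXPB3 (chromosome 4, 13999625-14002124, minus strand), a beta-expansin gene, had 851, 846 and 741 CPM in mock and 20.8, 26.9 and 24.2 CPM in induced libraries (log2 fold change -5.08 ± 0.139 (SE), adjusted p = 4.87e-11). Of 17 expansin genes 11 fell and 1 rose, the riser being EXPA20. Their share of the counts went from 0.177% ± 0.0119 to 0.0391% ± 0.000919. XTH31, coding for a xyloglucan transglucosylase, went from 464 ± 43.5 to 11.2 ± 1.97 CPM, and of 26 genes of that family 14 fell and XTH24 rose. Pectin genes followed. Of 52 polygalacturonase and pectate lyase genes 40 fell and 1 rose, AT3G15720 (0.39), whose call was lost with DESeq2 (0.35), with the 6 libraries at 24 h alone, with or without a replicate block, and without induced replicate 2, induced replicate 3 or mock replicate 2 (0.33, 0.36 and 0.34), while 2 rises were called without mock replicate 3. AT1G10640 had 159.6, 169.9 and 147 CPM in mock and 1.74, 1.86 and 1.18 CPM in induced libraries (log2 fold change -6.64 ± 0.272 (SE), adjusted p = 6.41e-10). Among 55 pectin methylesterase and inhibitor genes 37 fell and 5 rose, with AT1G02810 rising from 31.1 ± 6.26 to 108 ± 17.9 CPM. Galacturonosyltransferase genes, which build pectin and xylan, fell in 18 of 24 cases. Of the pectin lists, 75 of 130 and 63 of 115 members did not pass the filter on low counts.

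Of 40 arabinogalactan protein genes 33 fell and 2 rose. FLA8, a fasciclin-like protein gene, had 22.1, 21.02 and 22.3 CPM in mock and 103, 95.8 and 84.9 CPM in induced libraries (log2 fold change 2.12 ± 0.0976 (SE), adjusted p = 1.6e-09), and AGP31 rose from 768 ± 6.299 to 1006 ± 114 CPM. Of 11 extensin and proline-rich protein genes 6 fell, among them PELPK1, from 241 ± 10.5 to 17.7 ± 3.05 CPM. Cellulose synthase-like genes fell in 15 of 22 cases, with CSLA02, for mannan synthesis, from 403 ± 16.2 to 63.5 ± 6.79 CPM. Among 12 callose synthase genes 5 fell and 3 rose, and the median of 0.01 was -0.03 with RLE factors. The rises, GSL03, GSL1 and GSL10, lay between 0.17 and 0.19 on the log2 scale. With the 6 libraries at 24 h alone 0 rises were called, without mock replicate 1 there was 1, and with total library size 5. CalS7, the callose synthase of sieve plates, fell from 57.3 ± 5.56 to 14.3 ± 0.679 CPM. Of 54 genes listed as class III peroxidases, which crosslink walls, 33 fell and 7 rose. The share of the counts of this list went from 1.04% ± 0.0508 to 0.44% ± 0.0508. The list was matched by the annotation text peroxidase superfamily protein and also holds DOX1, the alpha-dioxygenase gene given above. DOX1 fell from 1953 ± 308 to 261 ± 36.7 CPM, which is a sizeable part of the drop in share. AT1G68850 fell from 89.8 ± 8.29 to 4.32 ± 1.48 CPM. AT5G64120 rose from 87.3 ± 41.3 to 156 ± 41.6 CPM, with mock libraries at 57.8, 69.5 and 134 CPM and induced at 123, 144 and 203 CPM, which overlap. Its call (0.84) was lost with DESeq2 and without induced replicate 3, mock replicate 1 or mock replicate 2 (0.61, 0.62 and 0.70).

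**Figure D2:**
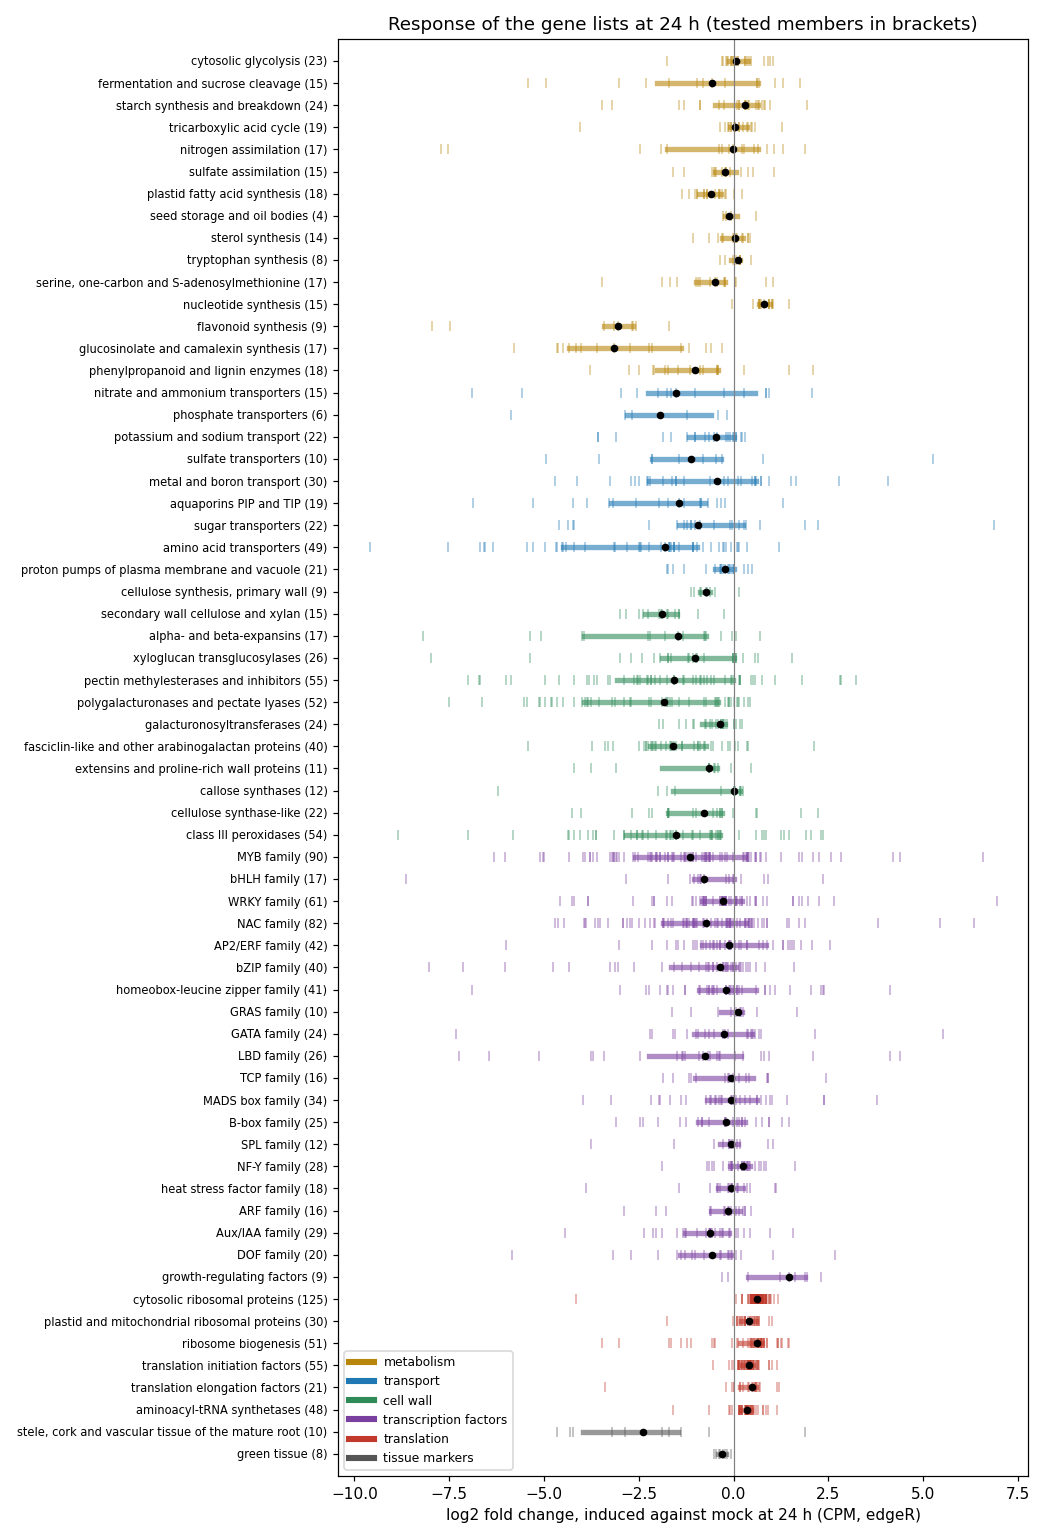
Response of the 64 gene lists at 24 h on the log2 fold change scale, coloured by class. Each vertical tick is 1 tested member, thick bars span the middle quartiles and black dots are medians; the medians of all 6 translation lists lie above 0 and those of all 9 transport lists below it, with glucosinolate synthesis lowest at -3.15 and growth-regulating factors highest at 1.47.

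Transcription factor families went both ways. Over 637 tested members 161 rose and 312 fell, 69 and 195 of them at least 2-fold. Growth-regulating factors, known for promoting cell number in young organs, were the list with the highest median, 1.47: 6 of 9 rose and none fell, counting GIF1, a coactivator of these factors. GRF3 had 2.26, 2.15 and 3.399 CPM in mock and 11.3, 15.1 and 11.7 CPM in induced libraries (log2 fold change 2.29 ± 0.197 (SE), adjusted p = 4.41e-07), and GRF2 3.35, 3.002 and 3.45 CPM and 10.7, 9.24 and 7.21 CPM. Both are low in level. Of 28 NF-Y genes 13 rose and 5 fell. The 5 that fell were NF-YA subunits, NF-YA2, NF-YA10, NF-YA8, NF-YA3 and NF-YA6, and NF-YC2 rose from 3.702 ± 0.258 to 11.3 ± 0.526 CPM. Of 10 GRAS genes 5 rose and 2 fell, and HAM1, known for shoot meristem maintenance, rose from 23.6 ± 0.631 to 74.3 ± 6.02 CPM. The calls of SCL1, SCL5 and SCL14, each under 0.25 on the log2 scale, were lost with DESeq2 and with RLE factors, which left 2 rises and 3 falls. Rises numbered 3 with the 6 libraries at 24 h alone and without induced replicate 2 or 3, and 2 without mock replicate 1.

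Among the largest changes of the family lists were rises of genes with a low level in mock roots. CUC2 (chromosome 5, 21901704-21903854, minus strand), the NAC factor of organ boundaries, had 0.106, 0.325 and 0.306 CPM in mock and 11.5, 10.5 and 10.6 CPM in induced libraries (log2 fold change 5.44 ± 0.261 (SE), adjusted p = 2.22e-09). MNP (chromosome 3, 18910947-18912608, plus strand), also named HANABA TARANU and GATA18, a boundary regulator of the shoot and embryo, had 0.479, 0.3503 and 0.39 CPM and 21.8, 18.1 and 16.4 CPM (log2 fold change 5.52 ± 0.27 (SE), adjusted p = 2.64e-09). HB31, a zinc-finger homeodomain gene grouped here with the homeobox genes, rose from 0.577 ± 0.215 to 10.2 ± 0.525 CPM. ASL5, also called LBD12, rose from 0.249 ± 0.0883 to 5.24 ± 0.192 CPM and TCP4, a leaf growth regulator of the CIN type, from 2.31 ± 0.123 to 12.6 ± 1.03 CPM. MYB88 and FLP, a pair known from the last division of the stomatal lineage, rose from 8.34 ± 0.734 to 35.9 ± 1.47 CPM and from 3.75 ± 0.2701 to 8.91 ± 1.36 CPM. LAS, a GRAS gene known from side shoot formation and organ boundaries, fell from 3.43 ± 0.212 to 1.11 ± 0.179 CPM, and WOX4, the cambium regulator among the tissue markers, from 66.4 ± 5.42 to 3.35 ± 0.717 CPM. For CUC2, MNP, HB31, ASL5, TCP4 and MYB88 the 3 induced libraries all lie above the 3 mock ones. Groups without overlap were common, at 16159 of the 21439 tested genes.

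Falls were frequent among MYB and NAC genes. Of 90 MYB genes 58 fell and 17 rose. MYB93, MYB9 and MYB107 are known from suberin in roots and seed coats, and MYB93 had 39.7, 32 and 31.2 CPM in mock and 0.548, 0.836 and 1.85 CPM in induced libraries (log2 fold change -4.99 ± 0.269 (SE), adjusted p = 6.08e-09). MYB9 fell from 12.7 ± 0.951 to 0.383 ± 0.0647 CPM and MYB107 from 9.48 ± 0.927 to 0.6304 ± 0.271 CPM, beside the fall of the suberin gene CYP86A1. Of 82 NAC genes 47 fell and 20 rose, with NAC058 going from 35.2 ± 4.48 to 2.38 ± 0.371 CPM. WRKY genes, known from defence, held 32 falls and 17 rises among 61, with WRKY24 going from 9.45 ± 1.31 to 0.391 ± 0.122 CPM and WRKY38 from 1.36 ± 0.0931 to 8.51 ± 2.61 CPM. Of 26 LBD genes 16 fell and 6 rose. LBD4 and ASL9, also called LBD3, both known from cambium, fell from 36.01 ± 1.73 to 2.77 ± 0.357 CPM and from 42.6 ± 4.75 to 1.22 ± 0.4004 CPM. Of 40 bZIP genes 22 fell and 7 rose, and TGA9 fell from 33.2 ± 2.45 to 3.76 ± 0.239 CPM. DOF genes fell in 12 of 20 cases, with DAG2 from 105 ± 2.36 to 15.9 ± 1.49 CPM.

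The auxin response families differed, with mostly falls among Aux/IAA genes and no stable direction among ARF genes. Of 29 Aux/IAA repressor genes 19 fell and 3 rose, with a median of -0.62. AXR3, also called IAA17, had 90.03, 94.97 and 80.4 CPM in mock and 1.67, 6.64 and 3.75 CPM in induced libraries (log2 fold change -4.46 ± 0.311 (SE), adjusted p = 6.3e-08). SHY2, also called IAA3, fell from 67.3 ± 9.05 to 18.2 ± 2.39 CPM, and ATAUX2-11, also called IAA4, rose from 83.8 ± 10.3 to 163 ± 10.5 CPM. IAA7 (0.28) lost its call without induced replicate 3, mock replicate 1 or mock replicate 3 (0.22, 0.26 and 0.23). Of 16 ARF genes 8 fell and 4 rose. ARF20 fell from 21.7 ± 0.648 to 2.91 ± 0.421 CPM and ETT, also called ARF3, from 45.5 ± 2.41 to 13.2 ± 0.592 CPM. AP2/ERF genes other than PLT5 held 13 rises and 16 falls among 42, TCP genes 5 and 6 among 16, and MADS box genes 10 and 11 among 34. Heat stress factors held 4 rises and 5 falls among 18 and SPL genes 2 and 4 among 12. Rises of heat stress factors numbered 2 without induced replicate 3 or mock replicate 1 and 7 with total library size. SPL rises numbered 1 without induced replicate 1 or 3 or mock replicate 1 or 2. The medians of the ARF, AP2/ERF, TCP, MADS box, heat stress factor and SPL lists lay between -0.14 and -0.06 with TMM and between 0.0 and 0.08 with total library size, so no direction is given for them. Genes of the homeobox list held 10 rises and 19 falls among 41, GATA genes 10 and 14 among 24, B-box genes 6 and 11 among 25, and bHLH genes 1 and 8 among the 17 tested. The rise, bHLH121 (0.2), was lost with DESeq2 and with RLE factors (0.15), and without any single library but mock replicate 2 (0.15 to 0.2). This list holds only genes named by a bHLH number. It leaves out AT4G37850, the bHLH gene among the 10 largest rises (7.3).

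**Figure D3:**
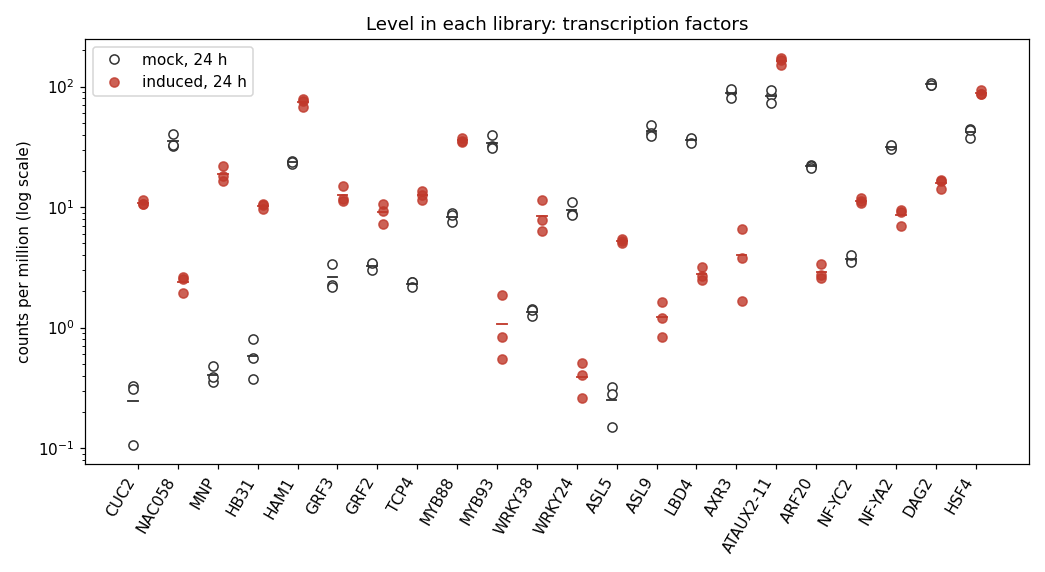
Level of 22 named transcription factor genes in each library at 24 h, in CPM on a log scale, with open circles for mock, filled circles for induced libraries and short lines for means of 3. CUC2, MNP, HB31 and ASL5 lie under 1 CPM in all mock libraries and above 5 CPM on average in induced ones, while MYB93, ASL9 and LBD4 lie lower in all induced libraries.

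Translation was the class in which most genes moved one way, most of them by less than 2-fold. Over 330 tested genes 279 rose (84.5%) and 16 fell, with a median of 0.52. For the cytosolic ribosome 254 genes matched by symbol or text, and the 133 whose annotation note places the product in the cytosolic ribosome were kept. Of these 133 genes 125 were tested, 121 rose, 1 fell and 3 were not called. The median was 0.62 with an interquartile range of 0.51 to 0.72, and between 0.57 and 0.76 under the other scalings. Their genes took 1.61% ± 0.104 of all counts in mock libraries (range 1.49% to 1.68%) and 2.7% ± 0.0344 in induced ones (range 2.67% to 2.74%), and the groups do not overlap. AT2G37600 had 44.5, 36.6 and 43.9 CPM in mock and 79.9, 83.6 and 77.99 CPM in induced libraries (log2 fold change 0.95 ± 0.0742 (SE), adjusted p = 1.79e-07). AT5G63070 was the one that fell, from a level of 0.484 ± 0.115 CPM in mock. Ribosomal proteins are encoded by paralog families whose copies can share reads, so single members are less certain than the list.

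The other parts of the machinery went the same way. Of 30 tested genes for proteins of plastid and mitochondrial ribosomes 24 rose and AT5G16200 fell. Of 51 ribosome biogenesis genes 38 rose and 9 fell, and FIB2, coding for the fibrillarin that guides methylation of ribosomal RNA, had 22.9, 19.8 and 28.6 CPM in mock and 70.4, 63.8 and 62.3 CPM in induced libraries (log2 fold change 1.46 ± 0.137 (SE), adjusted p = 9.7e-07). Of those that fell, AT2G21560, AT5G06930 and AT4G39190 entered the list by the annotation text nucleolar-like protein alone, with no stated role in making ribosomes. Initiation factors rose in 42 of 55 cases and fell in 1, AT5G54940, from 339 ± 9.81 to 232 ± 17.5 CPM. Of 21 elongation factor genes 15 rose and 2 fell, AT2G31920 and the plastid factor gene SCO1, the latter (-0.20) not called with total library size (-0.06). Aminoacyl-tRNA synthetase genes rose in 39 of 48 cases and fell in 2, NS2 and AT5G10695. The groups overlapped for AT5G10695 (-0.65), and its call was lost with total library size and without induced replicate 1, induced replicate 2 or mock replicate 3 (-0.53, -0.58 and -0.47).

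The promoters of 3 ribosomal protein genes are printed since motifs known from this gene class were frequent there. The telo box, AAACCCTA or TAGGGTTT on the other strand, stood in 51.9% of 133 promoters of cytosolic ribosomal protein genes against 6.22% of all 27437. The site II motif, TGGGCC or GGCCCA, stood in 66.9% against 15.5%, and both in 40.6% against 1.63%. Neither motif can overlap the other in these letters without sharing an end base. Among all tested genes that rose 9.05% held a telo box and 24.9% site II, and among those that fell 2.49% and 10.4%. The genes shown are the 3 with the largest gain in CPM among those with both motifs in the 150 bases before the start. They are AT5G07090, annotated as ribosomal protein S4, at chr5:2202214-2202363, plus strand, AT5G16130, ribosomal protein S7e, at chr5:5268271-5268420, plus strand, and AT1G52300, a zinc-binding ribosomal protein, at chr1:19476235-19476384, minus strand. Each is printed 5′ to 3′ on the gene's strand in TAIR10.1, with both motifs in capitals.
AT5G07090: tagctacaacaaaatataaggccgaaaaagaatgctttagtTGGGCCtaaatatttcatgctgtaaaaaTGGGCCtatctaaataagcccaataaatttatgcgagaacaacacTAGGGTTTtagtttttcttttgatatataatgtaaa
AT5G16130: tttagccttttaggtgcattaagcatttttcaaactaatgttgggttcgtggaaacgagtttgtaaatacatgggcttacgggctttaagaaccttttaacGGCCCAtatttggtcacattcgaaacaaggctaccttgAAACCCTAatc
AT1G52300: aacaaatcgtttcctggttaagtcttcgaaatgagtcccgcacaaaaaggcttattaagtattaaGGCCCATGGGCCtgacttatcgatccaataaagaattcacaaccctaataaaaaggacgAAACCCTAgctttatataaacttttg
Motif letters are a description of these windows, with no test and no claim on a factor.

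**Figure D4:**
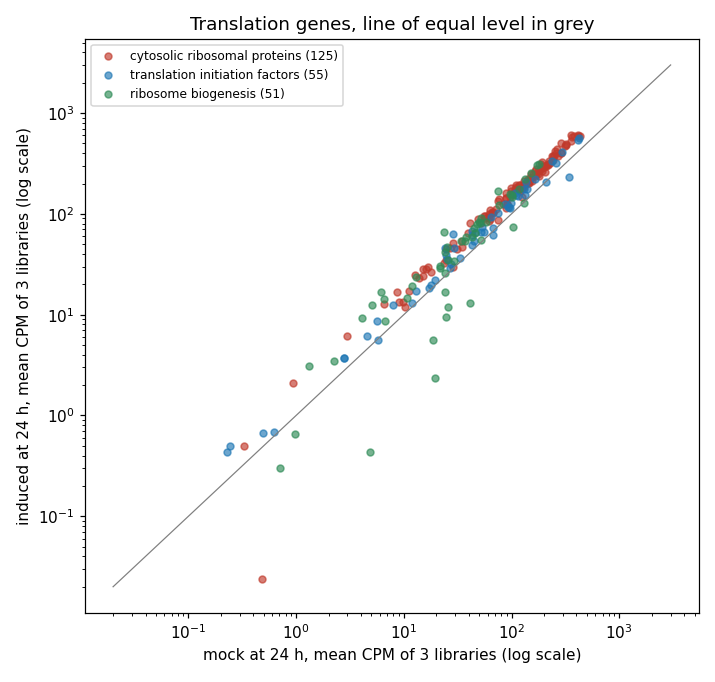
Mean level of the tested genes of 3 translation lists in mock (x axis) and induced roots (y axis) at 24 h, in CPM on log scales, with a grey line of equal level. Nearly all of the 125 cytosolic ribosomal protein genes lie above the line at a similar distance, with a median log2 fold change of 0.62.

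The 24 h response was set beside that at 8 h, measured against mock roots of that time. At 8 h 9748 of the 21439 genes (45.5%) were called, 4785 (22.3%) upward and 4963 (23.1%) downward. The responses differed at an adjusted p under 0.05 for 8740 of 21439 genes (40.8%). Of the 8500 genes called at both times 3932 went the same way with a larger change at 24 h and a called difference, 77 the same way with a smaller one, and 276 in opposite directions. Each response was taken against its own mock group. Of 64 list medians 48 had the same sign at both times and were larger at 24 h. Of 125 cytosolic ribosomal protein genes 11 had risen and 1 had fallen at 8 h, and for 120 the difference between the times was called. Of the 15 secondary wall genes 2 had fallen at 8 h and 14 differed between the times. Of 17 expansin genes 11 had fallen at 8 h, the same number as at 24 h, with a median of -1.71 at 8 h and -1.47 at 24 h. SULTR3;1 had a log2 fold change of 1.51 at 8 h and 5.25 at 24 h (adjusted p of the difference = 1.07e-06). HB31 had 0.63 and 4.13 (adjusted p of the difference = 3.36e-05), and BCAT4 -1.22 and -4.66 (adjusted p of the difference = 2.91e-07). FAH1, at 1.97 and 2.08, was not called different between the times (adjusted p = 0.79), nor was IRT1 (adjusted p = 0.711).

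**Figure D5:**
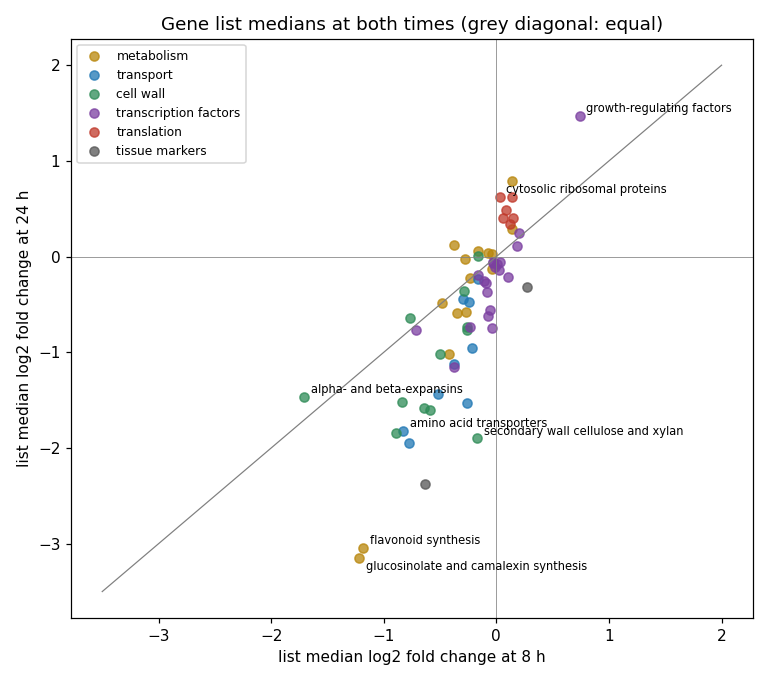
Median log2 fold change of each of the 64 gene lists at 8 h (x axis) and at 24 h (y axis), coloured by class, with a grey diagonal of equal medians. Most lists below 0 lie under the diagonal, as flavonoid synthesis at -1.18 and -3.04, and cytosolic ribosomal proteins lie at 0.03 and 0.62.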

How the data were processed

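RNA-seq was made from root segments of 12 libraries in 4 groups of 3 (mock and induced at 8 h and 24 h), grouped by their titles. The deposited values are raw read counts per gene locus made by the authors, per the file headers, on TAIR10, per the submitters' processing notes. The aligner and the counter were not given in the sources used here, nor was a strand setting, so reads of overlapping, antisense or near-identical genes cannot be separated.

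Counts were tested with edgeR 4.0.16 in R 4.3.3 (TMM, filterByExpr, quasi-likelihood test, 1 fit over all 12 libraries with group as the term), with Benjamini-Hochberg adjustment over the 21439 genes kept and calls at 0.05. All adjusted p-values in the text come from this edgeR fit. The code was tested on simulated data. Levels are CPM, computed with TMM-scaled library sizes. Total counts of all libraries ranged from 34958324 to 41447647. For genes with 0 counts in a group a floor of 3 counts over the group was used, and for 1 to 3 counts a 95% interval. Floors and intervals cover counting error only.

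The members, the 64 gene lists and the motifs were chosen with earlier results of these data known. Named genes are PLT5, the 10 largest rises and falls that reached 5 CPM in one group without overlap of the groups, the 8 largest gains and losses in CPM, up to 4 members per list with the largest change and up to 2 of the other direction, tissue markers, and members that a count of 5 or fewer needs. SUS2, SUS3, GIF1 and the promoters printed were added after their values were seen. Promoters were read from the TAIR10.1 genome at RefSeq gene starts.

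Same-numbered mock and induced libraries at 24 h deviated together from their group means (correlations of 0.285, 0.177 and 0.31 over 15908 genes). Between induced libraries of 8 h and 24 h the same-number values were 0.0868, -0.0279 and 0.405. There, replicates 1 and 2 correlated better with another number (0.248 and 0.235). The reported fit treats the samples as unpaired, and a pairing by number enters only with the replicate block. Alternatives were DESeq2 1.42.0, RLE factors, total library size, other filters on low counts, the 6 libraries at 24 h alone, a replicate block and leaving out each library.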

Additional observations from a re-analysis of the deposited data

Results flagged for a closer look

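Responses at 24 h and at 8 h differed for 8740 genes by the edgeR test of the difference between the times. Of the named genes, 9 were called in opposite directions at the 2 times with a called difference, and each is given as the log2 response at 24 h minus that at 8 h. SWEET13, a sucrose exporter gene, differed by 3.93 (from -1.69 at 8 h to 2.23 at 24 h). The pectin methylesterase gene AT2G45220 differed by 2.74 (-1.64 and 1.1), and the amino acid importer gene AAP1 by 1.32 (-0.98 and 0.34), whose call at 24 h was lost without induced replicate 1 (0.28) or mock replicate 2 (0.25). AT3G15720, of the pectin lyase-like genes, differed by 0.78 and the auxin repressor gene IAA7 by 0.69. Both calls at 24 h were lost in some fits with 1 library left out, with the sign kept: for IAA7 without induced replicate 3, mock replicate 1 or mock replicate 3 (0.22, 0.26 and 0.23), and for AT3G15720 without induced replicate 2, induced replicate 3 or mock replicate 2 (0.33, 0.36 and 0.34). XTH15, a xyloglucan transglucosylase gene, went the other way, by -2.56 (0.46 and -2.1). The plastid elongation factor gene SCO1 differed by -0.41, its 24 h call being lost with total library size (-0.06). The small subunit genes of Rubisco RBCS1A and RBCS3B, markers of green tissue, differed by -0.64 and -1.08, and the 24 h call of RBCS3B (-0.39) was lost with total library size (-0.25) and without induced replicate 1, mock replicate 1 or mock replicate 2 (-0.33, -0.33 and -0.31). Reads of RBCS3B can be shared with close copies.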

How the results depend on the processing

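The counts of calls stayed within 1.5 times the reported ones in every alternative run. Genes called at 24 h numbered 15271 with DESeq2, 15252 with RLE factors, 16431 with total library size, 15774 with no filter on low counts, 15189 with a mean of at least 10 counts and 14716 with the 6 libraries at 24 h alone. Leaving out 1 library gave 14604 to 15024. With DESeq2, 14544 of the calls were shared with the reported ones, all in the same direction. The replicate block gave 15893 calls, 8416 higher and 7477 lower, and 9379 genes whose response differed between the times. The replicate block added calls for the green tissue markers LHCB2.1 and PSBO1 and changed no other call of a named gene. A replicate block with the 6 libraries at 24 h alone, chosen after seeing the data, gave 15189 calls.

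Of 390 named genes, 12 lost their call with DESeq2, 7 with RLE factors, 13 with total library size, 10 with the 6 libraries at 24 h alone and 10 to 18 when 1 library was left out. With total library size IDH5, a gene of the tricarboxylic acid cycle, changed sign, from -0.14 to 0.01. The medians of 11 of 64 lists changed sign or reached 0.0 with the scaling, all near 0 in every scaling. The ARF list was the one that reached 0.0, with total library size, and was below 0 otherwise. A count of rises or falls moved by over 1.5 times in 29 of 64 lists under some alternative, in 22 with total library size and in 16 when 1 library was left out, mostly where few genes were called. With total library size rises numbered 5 among amino acid transporters and among potassium and sodium transport genes, 6 among proton pumps, 4 in serine metabolism, 8 in sterol synthesis, 5 among Aux/IAA genes and 10 among B-box genes. Falls of ARF genes then numbered 5. The libraries hold 3 replicates a group, and genes at few counts carry wide intervals.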
